A study of Mus musculus with 6 samples.

Results

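Cathepsins are proteases that work mainly inside lysosomes, the acidic compartments in which cells take apart proteins, organelles and material engulfed from outside. The name covers enzymes of different chemistry that share this location, and those described here are Ctsa, Ctsb, Ctsc, Ctsd, Ctsf, Ctsh, Ctsk, Ctsl, Ctss and Ctsz. They were taken by name as the listed lysosomal cathepsins, and they are 10 of the 18089 genes in the expression table. The rule itself uses no measured value, but the members were chosen with earlier results of these data known. The tissue was ischemic gastrocnemius muscle of male C57BL/6 mice that were 8 to 10 weeks of age, collected at day 7 of hindlimb ischemia (HLI), a model made by tying off and removing part of the left femoral artery. WT littermates were compared with Gpr174-/Y mice, which lack the X-linked receptor gene Gpr174 in every cell of the body, so no cell type can be assigned as the one in which the loss acted. All 6 mice had HLI, and neither uninjured muscle nor another time point was analysed here. RNA sequencing gave 3 libraries per genotype.

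In damaged muscle, lysosomal proteases are at work both in the fibres, where autophagy removes proteins and organelles, and in the macrophages that clear dead fibres. Most cathepsins are cysteine proteases of the papain family, which are made as inactive precursors, are tagged with mannose 6-phosphate for delivery to the lysosome, and are held in check outside it by cystatins. Cathepsin D is an aspartic protease and cathepsin A a serine carboxypeptidase. Many lysosomal genes carry the CLEAR element, a palindrome around the letters CACGTG that is bound by TFEB, TFE3 and MITF, while PU.1, the product of Spi1, drives genes of the myeloid lineage.

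The promoters of 4 members are shown. These 4 were chosen because a window of each holds the searched letters within the stretch printed. Another reason was that they include the aspartic and serine members, the member with the largest fold change and the only member that fell. Each line gives 120 bases before and 20 bases after a RefSeq transcription start on GRCm38.p6, read 5′ to 3′ on the strand of the gene. Capitals mark TCACGTGA, the CLEAR core, in Ctsa (plus strand, chr2:164833653-164833792) and Ctsd (minus strand, chr7:142387808-142387947), CACGTG in Ctsf (plus strand, chr19:4855045-4855184), and ACTTCCTC, the other-strand reading of the PU.1 letters GAGGAAGT, in Ctss (plus strand, chr3:95526666-95526805).
Ctsa: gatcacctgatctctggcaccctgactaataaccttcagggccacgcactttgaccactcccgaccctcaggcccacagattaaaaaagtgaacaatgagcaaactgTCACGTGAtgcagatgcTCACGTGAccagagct
Ctsd: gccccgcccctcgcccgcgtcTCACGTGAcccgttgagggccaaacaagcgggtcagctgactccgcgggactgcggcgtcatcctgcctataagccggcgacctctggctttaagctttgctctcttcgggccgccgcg
Ctsf: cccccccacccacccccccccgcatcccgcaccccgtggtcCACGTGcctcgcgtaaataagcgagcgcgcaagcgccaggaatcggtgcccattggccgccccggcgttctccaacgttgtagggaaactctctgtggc
Ctss: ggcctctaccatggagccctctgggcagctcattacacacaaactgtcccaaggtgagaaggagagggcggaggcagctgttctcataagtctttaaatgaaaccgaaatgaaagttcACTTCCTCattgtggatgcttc

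Across the RefSeq windows of 300 bases, which run from 250 bases before to 50 bases after each start, 8 of the 10 members were matched by 9 windows, and Ctsb and Ctsh were not matched. Both strands were searched. The full CLEAR palindrome, 10 bases long, was in none of the 9 member windows and in 0.326% of all 32851 windows. Its core TCACGTGA was in Ctsa and Ctsd, against 0.974% of all windows. In Ctsa it began 13 bases before and again 5 bases after the start printed above, and in Ctsd it began 99 bases before the start. The other Ctsa window, which includes the gene start at 164832873, held neither this core nor CACGTG. The shorter CACGTG, which every core also contains, was in Ctsa, Ctsd, Ctsf and Ctsl and in 7.15% of all windows. GAGGAAGT or its other-strand reading ACTTCCTC was in Ctss, beginning 2 bases before the start, and in Ctsc, beginning 151 bases before it, against 3.20% of all windows. The AP-1 letters TGAGTCA (5.20% of all windows) and the EGR1 letters GCGTGGGCG (0.612%) were in no member window. These are matches of letters in a fixed window, and binding was not measured.

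The libraries held between 18417107 and 19394505 counts in all, a count being the estimated number of reads on a gene, and 3 counts, taken as the smallest number that can be detected, were worth 0.155 to 0.163 CPM, the unit of counts scaled to library size. Gpr174 itself had 8, 2 and 5 counts in the WT libraries and 1, 0 and 0 in the Gpr174-/Y libraries, at or near the floor on both sides and too few to pass the filter on low counts. In both groups replicate 2 lay between replicates 1 and 3 for most abundant genes, for 86.0% of 3859 genes in WT and 76.5% in Gpr174-/Y, and for 10 and 8 of the 10 cathepsins, so a result is also given with replicates 1 and 3 alone. Gpr174-/Y replicates 1 and 2 differed little more than counting noise, with a chi-square of 1.93 per degree of freedom where noise alone gives about 1, against 3.99 and 9.93 for the other Gpr174-/Y pairs and 12.96 to 76.2 for the WT pairs. Values of n = 3 and the adjusted p-values take the libraries as independent, which was not tested, and they would not hold if it were otherwise. The 3 WT libraries also differed widely among themselves in mature muscle fibre genes, with summed levels of 235366, 205574 and 163705 CPM, against 83668, 80360 and 75731 CPM in Gpr174-/Y. Their values are given beside the results they touch.

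All 10 cathepsins passed edgeR's filter on low counts and all 10 differed between the genotypes at an adjusted p of 0.05, with 9 higher and 1, Ctsf, lower in the Gpr174-/Y muscles (edgeR quasi-likelihood test, Benjamini-Hochberg adjustment over 14395 genes). The background for this count is high, since 54.6% of all tested genes passed, 27.0% as higher and 27.6% as lower. The members were chosen with earlier results of these data known, so the count is only a description. The median log2 fold change of the 10 was 0.79, beside 0.00 over all tested genes. Groups that did not overlap were found in all 10 members and in 65.6% of all tested genes. In these bulk libraries more cells of a type and more RNA per cell cannot be told apart, and the p-values measure only the spread between these 3 libraries per group. With replicates 1 and 3 alone no gene passed, 9 of the 10 members had an unadjusted p below 0.05, as had 34.8% of all genes, and the lowest adjusted p of a member was 0.0548.

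On a scale corrected for transcript length (TPM), the 10 cathepsins together made up 2567, 3093 and 3958 TPM in WT replicates 1, 2 and 3, and 7142, 7329 and 7629 TPM in the Gpr174-/Y replicates. The WT libraries spread widely and the Gpr174-/Y libraries lay close together, with no overlap. As a share of all TPM this was 0.257% to 0.396% in WT and 0.714% to 0.763% in Gpr174-/Y. Ctsb and Ctsd alone supplied 61.4% to 65.7% of the cathepsin total in every library.

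**Figure D1:**
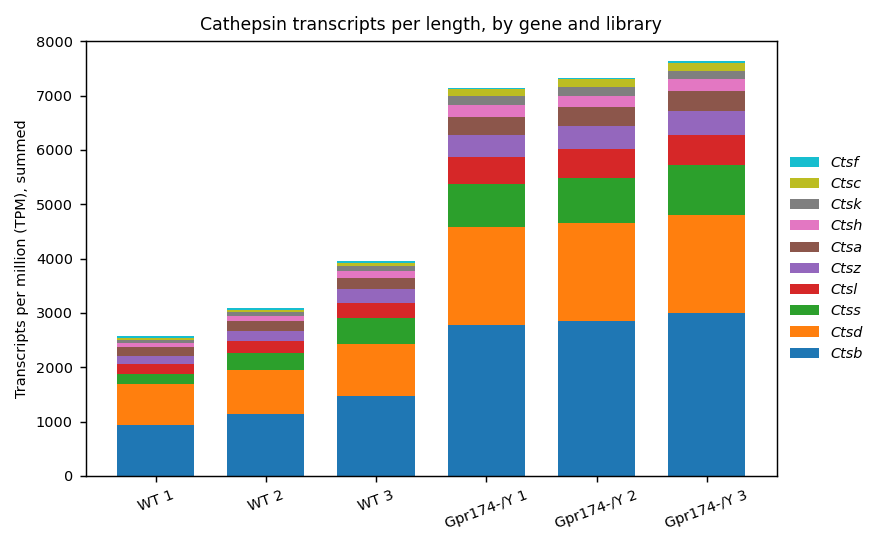
Summed TPM (y axis) of the 10 cathepsins in each of the 6 libraries (x axis), with each gene as a segment of the bar. The WT bars reach 2567 to 3958 TPM and the Gpr174-/Y bars 7142 to 7629 TPM, and Ctsb and Ctsd form the lower 61.4% to 65.7% of every bar.

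The order of the members by mean TPM was the same in both genotypes, namely Ctsb, Ctsd, Ctss, Ctsl, Ctsz, Ctsa, Ctsh, Ctsk, Ctsc and Ctsf. Within WT, Ctsz was above Ctsa in only 2 of the 3 libraries. In WT the mean levels ran from 1180 ± 268 TPM (SD, n = 3) for Ctsb and 841 ± 109 TPM for Ctsd down to 49.9 ± 14.0 TPM for Ctsc and 33.1 ± 0.299 TPM for Ctsf. In Gpr174-/Y they ran from 2870 ± 111 TPM for Ctsb and 1807 ± 7.40 TPM for Ctsd down to 138 ± 9.90 TPM for Ctsc and 29.3 ± 1.13 TPM for Ctsf. Between neighbours in the WT order the ranges overlapped for Ctsb and Ctsd, Ctss and Ctsl, Ctsl and Ctsz, Ctsz and Ctsa, Ctsh and Ctsk, and Ctsk and Ctsc, while Ctsd stood clear of Ctss, Ctsa clear of Ctsh and Ctsc clear of Ctsf. In Gpr174-/Y no neighbouring ranges overlapped. Ctsf held 1.03% of the cathepsin TPM in WT and 0.397% in Gpr174-/Y.

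The aspartic and the serine member rose, with the smallest fold changes of the 9, although differences between members were not tested. Ctsd encodes cathepsin D, the main aspartic endopeptidase of the lysosome, and sits on chromosome 7 at 142375911 to 142388038, a position that like the others given here is that of GENCODE M21 on GRCm38, with up to 9 exons. Its TMM-scaled levels, that is CPM corrected for library composition, were 854, 901 and 996 CPM in the WT replicates and 1563, 1508 and 1453 CPM in the Gpr174-/Y replicates. Every Gpr174-/Y library was above every WT library, and the log2 fold change was 0.72 ± 0.09 (SE, adjusted p = 0.00139, edgeR quasi-likelihood test). Ctsa encodes the carboxypeptidase that also protects beta-galactosidase and neuraminidase in a complex, and lies on chromosome 2 from 164832873 to 164841032. It had 220, 236 and 256 CPM in WT and 337, 337 and 334 CPM in Gpr174-/Y. The 3 Gpr174-/Y values were nearly equal and stood above all WT values, with a log2 fold change of 0.50 ± 0.07 (adjusted p = 0.00191). Ctsa shares 495 exon bases with Pltp on the opposite strand, itself higher by 0.53 on the log2 scale (adjusted p = 0.0218). It also shares 324 with Neurl2 on the opposite strand, whose log2 fold change of -0.43 did not pass (adjusted p = 0.0707). The strand used in counting is not given in the sources used here, so reads in these stretches may belong to either gene. Exon bases are likewise shared by Ctsb with Fdft1 (774) and Ctsz with Nelfcd (10), neither of which passed the test (log2 fold changes -0.11 and -0.06), by Ctsd with Gm49369 (808), and by Ctsl with Gm47123 (1742) and Gm49230 (395).

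Ctsl, Ctss and Ctsk are papain-family endopeptidases. Ctsl, a ubiquitous endopeptidase that also processes other lysosomal enzymes, lies on chromosome 13 from 64359337 to 64370890. Its levels were 181, 212 and 249 CPM in WT and 377, 381 and 385 CPM in Gpr174-/Y. The genotypes were apart without overlap, by 0.83 ± 0.12 (SE, adjusted p = 0.00184, edgeR quasi-likelihood test) on the log2 scale. Ctss and Ctsk are neighbours on chromosome 3, at 95526786 to 95556403 and 95499256 to 95509362, with no coding gene between them. Ctss encodes the cathepsin of antigen-presenting cells that trims the invariant chain and that keeps activity at neutral pH. It had 154, 232 and 343 CPM in WT and 462, 486 and 525 CPM in Gpr174-/Y. WT replicate 1 was the lowest and WT replicate 3 the highest of its group, 2.22 times the other, the widest WT spread of the 10, yet the genotypes did not overlap. The log2 fold change of 1.01 ± 0.26 was the largest of the 10 and had the highest adjusted p, 0.0161, which rose to as much as 0.0596 when 1 library was left out (Gpr174-/Y replicate 3 or WT replicate 2). Ctsk encodes the collagen-degrading cathepsin best known from osteoclasts. Its levels were 48.7, 55.9 and 73.3 CPM in WT and 111, 108 and 97.3 CPM in Gpr174-/Y, apart without overlap, with a log2 fold change of 0.83 ± 0.15 (adjusted p = 0.00392).

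**Figure D2:**
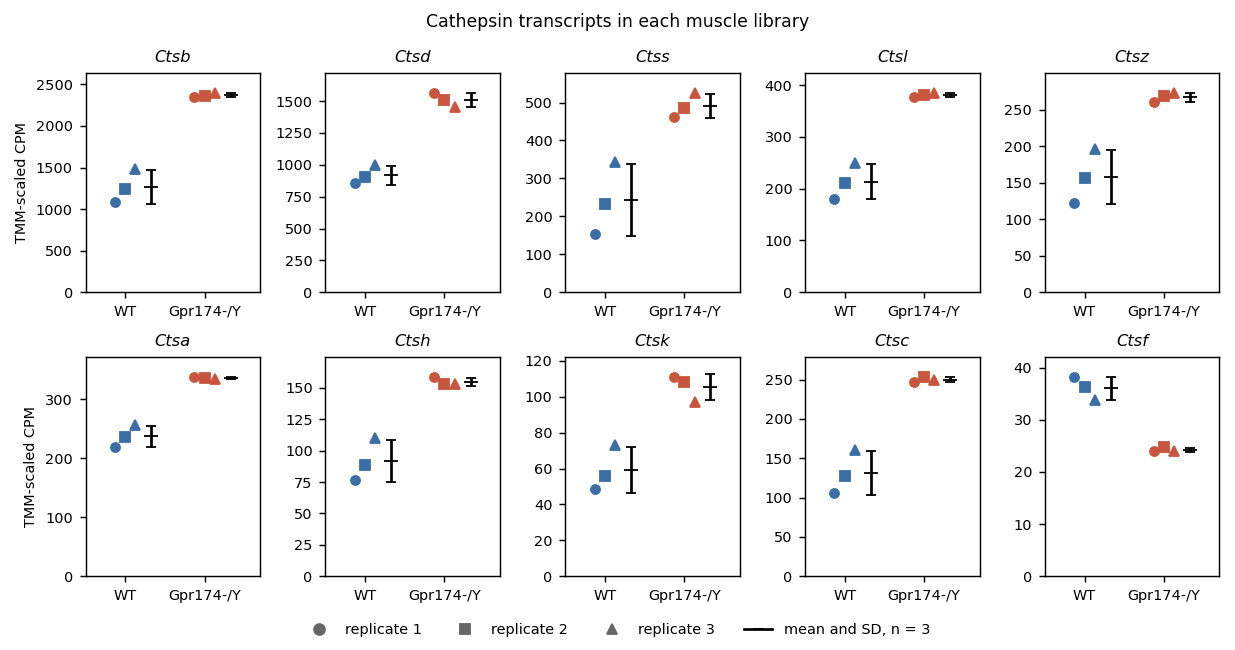
TMM-scaled CPM (y axis, from 0, a scale of its own for each gene) of the 10 cathepsins in the WT and Gpr174-/Y libraries, with 1 symbol per library and the mean with its SD (n = 3) beside them. The Gpr174-/Y libraries lie above all WT libraries in 9 panels and below them for Ctsf (24.0 to 24.7 against 33.7 to 38.1 CPM).

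Ctsb, Ctsc, Ctsh and Ctsz are cysteine members that trim peptides from an end. Ctsb, which cleaves both inside proteins and as a carboxydipeptidase, lies on chromosome 14 from 63122462 to 63145923 and was the most abundant member in every library. It had 1081, 1239 and 1488 CPM in WT and 2350, 2359 and 2394 CPM in Gpr174-/Y. The Gpr174-/Y libraries were within 1.02 times of each other and above every WT library, by 0.90 ± 0.13 (SE, adjusted p = 0.00199, edgeR quasi-likelihood test) on the log2 scale. Ctsc, or dipeptidyl peptidase 1, which activates the serine proteases of granules, lies on chromosome 7 from 88278085 to 88310888. Its levels were 106, 127 and 161 CPM in WT and 247, 253 and 249 CPM in Gpr174-/Y, again apart without overlap, with a log2 fold change of 0.93 ± 0.14 (adjusted p = 0.00244), second to Ctss. Ctsh, an aminopeptidase (chromosome 9, 90054152 to 90076089), had 76.5, 88.1 and 110 CPM in WT and 158, 153 and 153 CPM in Gpr174-/Y. Ctsz, a carboxypeptidase that is also secreted (chromosome 2, 174427493 to 174439039), had 123, 156 and 196 CPM in WT and 260, 268 and 273 CPM in Gpr174-/Y. Neither overlapped between genotypes, and the log2 fold changes were 0.76 ± 0.12 for Ctsh (adjusted p = 0.00308) and 0.75 ± 0.16 for Ctsz (adjusted p = 0.00720).

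Ctsf was the exception. It encodes cathepsin F, a papain-family member with a long propeptide that is expressed in many tissues, skeletal muscle among them, and lies on chromosome 19 from 4855130 to 4860918 with 14 exons, next to the fast-fibre gene Actn3. Its levels were 38.1, 36.2 and 33.7 CPM in WT and 24.0, 24.7 and 24.0 CPM in Gpr174-/Y. All Gpr174-/Y values were below all WT values, and within WT the order of the libraries was the reverse of that in the other 9 genes, with replicate 1 highest and replicate 3 lowest. The log2 fold change was -0.57 ± 0.06 (SE, adjusted p = 0.00101, edgeR quasi-likelihood test), the smallest adjusted p of the 10. In estimated counts before scaling the difference was smaller, with 613, 608 and 600 counts in WT and 503, 525 and 516 in Gpr174-/Y.

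The size of the changes depends on how the libraries are scaled. TMM factors were 0.873 to 0.952 in WT and 1.08 to 1.12 in Gpr174-/Y, and scaling by total counts instead raised the median of all tested genes from 0.00 to 0.28 on the log2 scale. The split of the calls over all genes moved with it, to 50.7% higher and 14.0% lower. The members kept their directions, 9 higher and Ctsf lower at -0.29, and their median became 1.06. With the further requirement of an absolute log2 fold change above 1, only Ctss qualified under TMM, where 8.28% of all tested genes did (3.45% as higher), and 7 members qualified under total counts, where 10.4% did.

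**Figure D3:**
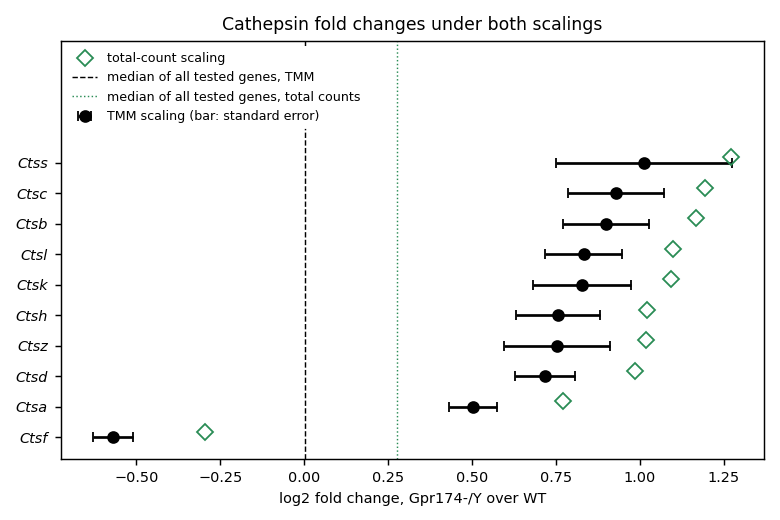
Log2 fold change of each cathepsin, Gpr174-/Y over WT (x axis), with TMM scaling (filled circles, bars for the SE) and total-count scaling (open diamonds), and dashed and dotted lines for the median of all tested genes under each. Ctsf is at -0.57 and -0.29, and the other 9 lie between 0.50 and 1.01 with TMM and are further right with total counts.

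Ratios taken within a library do not depend on this scaling. Lamp1, an abundant glycoprotein of the lysosomal membrane, had 657 to 676 CPM in WT and 695 to 723 CPM in Gpr174-/Y apart without overlap, and did not pass the test under TMM (log2 fold change 0.10, adjusted p = 0.241) but did with total counts (0.37, adjusted p = 0.00564). In TPM, the ratio of Ctss to Lamp1 was 0.395, 0.598 and 0.865 in the WT libraries and 1.13, 1.15 and 1.21 in the Gpr174-/Y libraries. The ratio of Ctsf to Lamp1 was 0.0679, 0.0641 and 0.0587 in WT and 0.0404, 0.0406 and 0.0390 in Gpr174-/Y. The ratios of all 10 members to Lamp1 were apart without overlap, from 1.33-fold for Ctsa to 2.03-fold for Ctsc in 9 of them and 0.631-fold for Ctsf (2-sided exact permutation test, p = 0.1 for each and 0.1 after adjustment over the 10, the smallest p that 3 against 3 allow). The share of all genes without overlap in this ratio was not computed, and in CPM it was 65.6% of tested genes. The TPM of Ctsc includes a transcript of few estimated counts (47.3 to 108 in WT, 248 to 306 in Gpr174-/Y). It made up 8.68, 16.5 and 19.8 of 36.0, 49.6 and 64.1 TPM in WT. In Gpr174-/Y it made up 46.6, 57.4 and 59.65 of 127, 141 and 146 TPM. The share of each gene's estimated counts on its leading transcript was compared too, and the shares of the other transcripts were not. The leading transcript of Ctsb carried 65.7% to 68.7% of its estimated counts, that of Ctsc 73.7% to 76.4% and that of Ctss 83.2% to 92.8%. Over the 8 genes with more than 1 transcript the adjusted p was 0.4 to 1 (exact permutation test). Since p cannot fall below 0.1 here, no gene could pass, and no conclusion is drawn. Ctsa (94.8% to 95.2% in WT, 95.4% to 96.5% in Gpr174-/Y) and Ctsl (97.45% to 97.58%, 97.59% to 97.94%) were at that smallest unadjusted p.

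The genes listed as cathepsin inhibitors, cystatins and serpins, moved in both directions. Of 7 tested inhibitor genes 1 rose, 2 fell and 4 did not pass, and with total counts 2 rose and 2 fell. Cst3, or cystatin C, the secreted inhibitor, had 338, 328 and 305 CPM in WT and 297, 292 and 285 CPM in Gpr174-/Y, a log2 fold change of -0.15 that did not pass (adjusted p = 0.0833) and that became 0.13 with total counts. Cstb, the cytosolic cystatin B, rose from 26.8, 32.9 and 45.1 CPM to 67.1, 65.0 and 64.9 CPM, a log2 fold change of 0.91 (adjusted p = 0.00482). Serpinb6a, a cytosolic serpin, fell by 0.66 and Cst6, the secreted cystatin E/M, fell by 1.05 on the log2 scale. The summed TPM of the 8 cysteine cathepsins was 2.25, 2.81 and 3.79 times that of Cst3 in the WT libraries and 5.78, 5.93 and 6.18 times in the Gpr174-/Y libraries. These ratios did not overlap and were 2.07-fold apart, with p = 0.1 in the 2-sided exact permutation test, the smallest that the design allows.

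Of the 13 other mouse cathepsins on the list, 5 were in the table and 3 could be tested. Ctso, a papain-family member, had 17.1, 18.5 and 19.9 CPM in WT and 23.7, 23.4 and 22.3 CPM in Gpr174-/Y and rose by 0.32 (adjusted p = 0.00905). Ctse, the second aspartic cathepsin, had 0.124, 0.298 and 0.506 CPM in WT and 0.717, 0.565 and 0.744 CPM in Gpr174-/Y, with no overlap, and its log2 fold change of 1.08 missed the threshold under TMM (adjusted p = 0.0578) and passed it with total counts (1.35, adjusted p = 0.0269). Ctsw, which is known from cytotoxic lymphocytes, had 2.05 to 3.43 CPM in WT and 1.67 to 2.47 CPM in Gpr174-/Y, with overlap, and did not pass the test. Ctsg, the serine protease of neutrophil granules, had at most 1 count in any library.

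The rest of the lysosome changed in part. Lgmn, or legumain, which processes cathepsin precursors, rose from 220, 273 and 353 CPM to 508, 515 and 538 CPM (log2 fold change 0.88, adjusted p = 0.00459). Of the 8 genes listed as lysosomal processing and other proteases, 5 rose and 1, Cpq, fell by 0.36 under TMM. With total counts 6 rose and 0 fell, Cpq being at -0.09 (adjusted p = 0.262). Glycan and lipid hydrolases had the highest median of the other pathway lists, 0.61, with 24 of 34 higher, 2 lower and 8 that did not pass. Gusb, which removes glucuronic acid from glycans, rose by 0.88 and Galc, which cleaves galactosylceramide, by 0.69, while Smpd1, the acid sphingomyelinase, fell by 0.57 and Gaa, the acid glucosidase of glycogen, fell by 0.38. With total counts Gaa did not pass (-0.10, adjusted p = 0.144), and the list had 30 higher and 1 lower. Of 15 lysosomal membrane genes 9 rose, among them the cholesterol transporter gene Npc1 by 0.56, and 6 did not pass, against 13 higher with total counts. Of 17 subunits of the proton pump (V-ATPase) 9 rose, 3 fell and 5 did not pass under TMM, and 13 rose and 0 fell with total counts. Atp6v0d2, a subunit isoform of macrophages and osteoclasts, rose by 1.22 and Atp6v1a by 0.69, and Atp6v1d fell by 0.34 under TMM but not with total counts (-0.06, adjusted p = 0.251, edgeR quasi-likelihood test).

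Delivery and regulation were mixed. Of 12 genes of mannose 6-phosphate and sortilin transport 6 rose, 1 fell and 5 did not pass under TMM, and 9 rose and 0 fell with total counts. Gnptab, which makes the tag, rose by 0.48, and the receptors of the tag, M6pr and Igf2r, which were picked after their values had been seen, rose by 0.62 and 0.46. Of 6 transcription factors of the lysosome or the myeloid lineage, Tfec rose by 1.33, Spi1 by 0.89 and Tfe3 by 0.35, and 2 did not pass, while 5 rose with total counts. Tfeb, the factor best known for binding CLEAR elements, went the other way, from 73.5, 70.9 and 58.7 CPM in WT to 41.1, 40.7 and 39.8 CPM in Gpr174-/Y, with no overlap (log2 fold change -0.74, adjusted p = 0.00127, edgeR quasi-likelihood test). Of 12 autophagy genes 2 rose, 6 fell and 4 did not pass under TMM, with a median of -0.17, whereas 5 rose and 2 fell with total counts, with a median of 0.11. Map1lc3a, a component of the autophagosome membrane, fell by 0.99, Gabarapl2 fell by 0.61 and Atg5 rose by 0.21.

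The known substrates and partners were listed as well. Ctss acts on the invariant chain Cd74, and of 7 genes of class II peptide loading none rose and 1, H2-Eb1, fell by 0.32 under TMM, whereas 2 rose and 0 fell with total counts, where H2-Eb1 was at -0.04 (adjusted p = 0.711). Cd74 had 753, 755 and 775 CPM in WT and 645, 690 and 758 CPM in Gpr174-/Y, overlapping (log2 fold change -0.13, adjusted p = 0.231, and 0.15 with total counts). Of 9 matrix proteins that cathepsins can cleave 4 rose and 3 fell, against 5 and 2 with total counts. Among them the collagen gene Col1a2 rose by 0.79 and elastin, Eln, by 0.33, while decorin, Dcn, fell by 0.57 and the basement membrane collagen gene Col4a1 fell by 0.55. Of the listed precursors that Ctsc activates only 4 of 8 were abundant enough to be tested. Of these 4, the mast cell chymase genes Mcpt4 and Cma1 fell by 1.11 and 0.85, while 2 did not pass. With total counts Cma1 did not pass (adjusted p = 0.0614). Mast cell markers, a list that also holds both genes, fell in 4 of 5 cases, and the part of mast cells in these values was not tested.

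**Figure D4:**
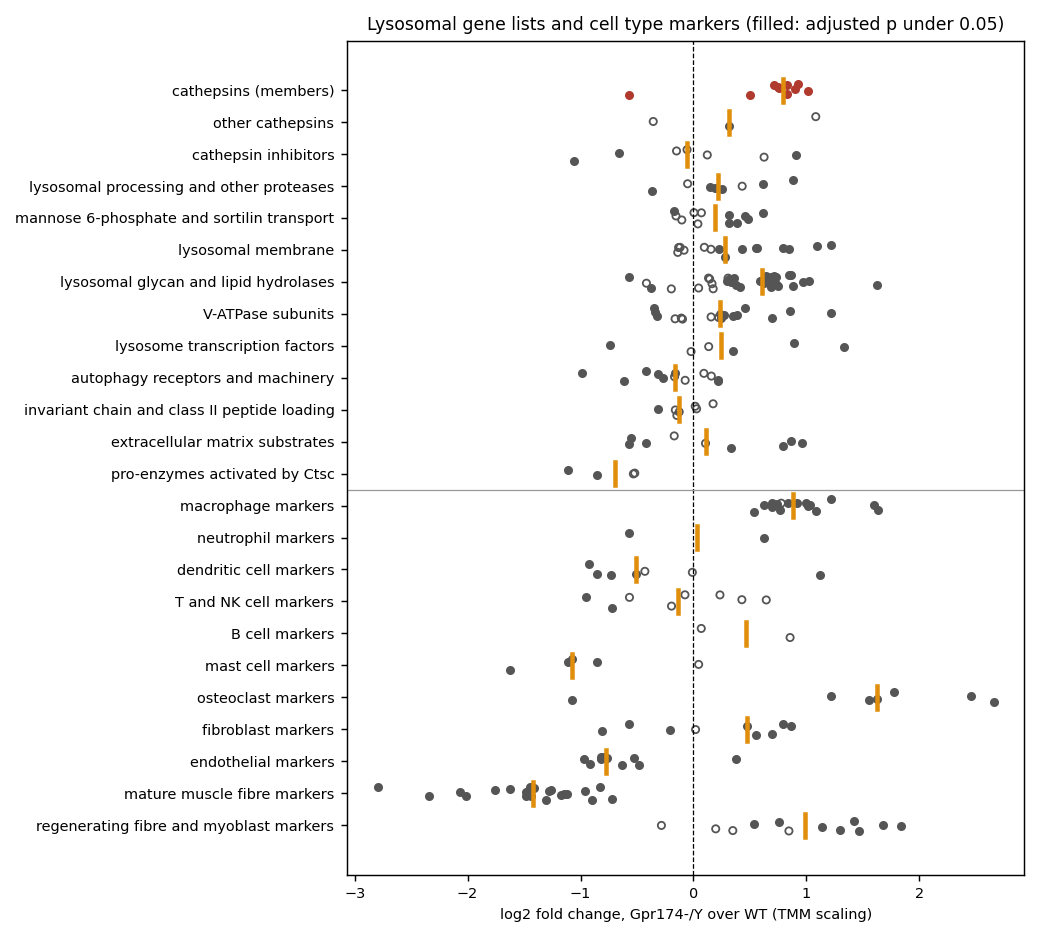
Log2 fold change, Gpr174-/Y over WT (x axis), of every tested gene in the listed pathways (above the line) and cell type markers (below it), with genes past an adjusted p of 0.05 filled, the others open and the median of each list as an orange bar. The cathepsin median is 0.79, that of the glycan and lipid hydrolases 0.61, that of the macrophage markers 0.88 and that of the mature fibre genes -1.42.

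Lists of cell type markers moved in different directions, some with the cathepsins and some against them. Of 16 macrophage markers 15 rose and 1 did not pass, with a median log2 fold change of 0.88, and their summed level was 1724 to 2723 CPM in WT and 4045 to 4129 CPM in Gpr174-/Y. Cd68, the lysosomal glycoprotein of macrophages, rose from 94.6, 131 and 176 CPM to 301, 314 and 320 CPM, and Adgre1, which encodes F4/80, from 58.9, 73.9 and 97.2 CPM to 135, 136 and 139 CPM. In WT these sums were lowest in replicate 1 and highest in replicate 3, the order seen in 9 of the 10 cathepsins. Of 22 mature fibre genes all fell, with a median of -1.42, and their sum ran in the reverse order in WT, although Myh1, Myh2 and Des, named after their values were seen, ran in the order of the cathepsins. Of 7 osteoclast markers, among them genes that fused macrophages also express, 6 rose and 1 fell, with a median of 1.63 and sums of 37.0 to 74.4 CPM in WT and 192 to 203 CPM in Gpr174-/Y. Only 2 of 11 neutrophil markers could be tested, the defining ones S100a8, S100a9 and Ly6g being below 1 CPM in every library. Of 12 markers of regenerating fibres and myoblasts 8 rose and 4 did not pass, with a median of 0.99 and sums of 7004 to 9216 CPM in WT and 8524 to 10547 CPM in Gpr174-/Y, which overlapped. Of 7 dendritic cell markers 1 rose and 4 fell, of 8 T and NK cell markers none rose and 2 fell, of 5 mast cell markers none rose and 4 fell, and neither of 2 B cell markers passed. With total counts the dendritic cell list had 1 higher and 1 lower, the T and NK cell list 2 higher and 1 lower, the mast cell list 1 higher and 3 lower, and the B cell list 1 higher. Of 9 fibroblast markers 5 rose and 3 fell, and of 10 endothelial markers 1 rose and 9 fell. The part of these cell types in the cathepsin differences was not tested.

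**Figure D5:**
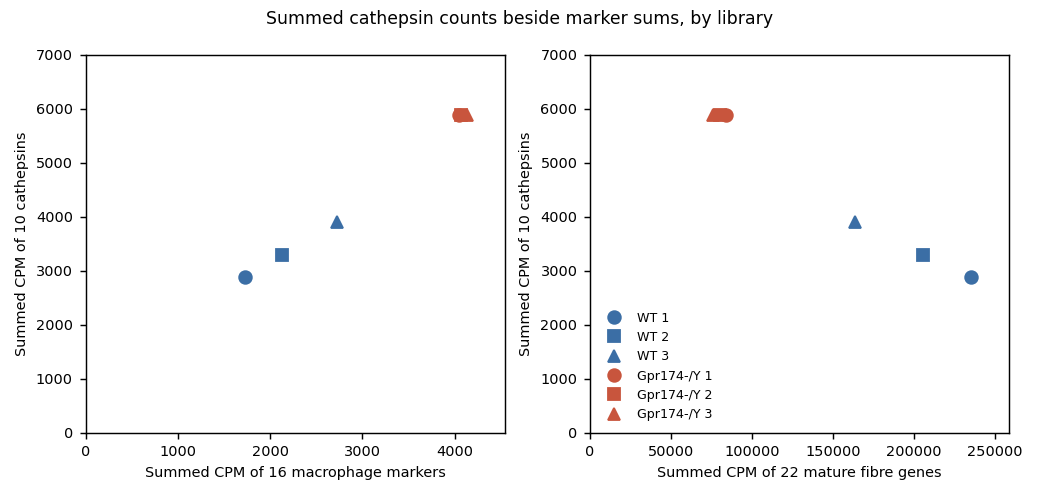
Summed TMM-scaled CPM of the 10 cathepsins (y axis) against that of 16 macrophage markers (left) and 22 mature fibre genes (right), 1 point per library. The Gpr174-/Y libraries lie together at 5877 to 5889 CPM of cathepsins, and the WT libraries are spread from 2880 to 3905 CPM, in the order of their macrophage marker sums and against that of their fibre sums.

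With a score of the mature fibre genes as a covariate, 1 of the 10 cathepsins passed, as did 2.58% of all tested genes, and it was Ctss with its direction turned (log2 fold change -1.79, adjusted p = 0.0404, edgeR quasi-likelihood test). The score separated the genotypes completely (0.425 to 0.950 in WT, -0.805 to -0.641 in Gpr174-/Y), so that fit rests on the spread within each genotype.

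The 5 tested genes whose profile over the 6 libraries lay nearest to the mean profile of the 10 cathepsins, by root mean square distance of centred log2 CPM, were Clic1 at 0.0157, Sdcbp at 0.0189, Pld3 at 0.0201, Supt20 at 0.0226 and Kirrel at 0.0236. Clic1, the nearest, had 67.0, 78.1 and 91.4 CPM in WT and 126, 125 and 123 CPM in Gpr174-/Y. None of the 5 is on a list described here.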

How the data were processed

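RNA of ischemic gastrocnemius muscle from 3 WT and 3 Gpr174-/Y mice was sequenced at BGI on the BGISEQ platform according to the methods, while the labels name an Illumina library kit. For 58843 RefSeq transcripts the authors deposited expected counts (estimated reads per transcript, not normalized) together with FPKM and TPM, which the authors scaled for transcript length and library size. The submitters' processing notes list HISAT2 2.0.4, Bowtie2 2.2.5, RSEM 1.2.12 and the build GRCm39. The strand setting is not given in the sources used here. The table holds no coordinates, so gene positions are from GENCODE M21 on GRCm38, and promoters are from RefSeq on GRCm38.p6. The table's group averages were not used.

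Expected counts were summed per Entrez gene and rounded. Of the resulting 18089 genes, 99.7% had a symbol. Total counts were 18417107 to 19394505 per library, and floors cover counting error only. Libraries were grouped by genotype from the labels. Genes were compared with edgeR 4.0.16 in R 4.3.3 (TMM, filterByExpr, robust quasi-likelihood test, Benjamini-Hochberg over 14395 genes). The thresholds were those of the study, namely 0.05 for the adjusted p and 1 for the absolute log2 fold change. The biological coefficient of variation was 0.0983. Tested on simulated data with 200 changed genes, this fit recovered 99% of those changed by 1 and 100% of those changed by 1.5 on the log2 scale. The changed genes were all abundant and were raised and lowered equally often, and every gene had the same dispersion. The simulation therefore does not show how the fit performs on data in which 54.6% of genes passed. FPKM was used in alternatives with limma 3.58.1, with a pseudocount of 1 or 0.1 before the log2, for genes of at least 1 FPKM in 3 libraries. Ratios and transcript shares were compared by exact permutation (scipy 1.17.1). Replicates of both groups carry the same numbers, but these mark different mice, and same-numbered libraries did not deviate together (correlations 0.016, -0.028 and -0.008), so no replicate block was used. The other alternatives were DESeq2 1.42.0 (Wald test, and its size factors in edgeR), scaling by upper quartile or total counts, limma voom, other filters, leaving out each library, replicates 1 and 3 alone, and the fibre score as a covariate.

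Named were all members, Gpr174, members of the inhibitor, protease, cathepsin and transcription factor lists, at most 2 genes per direction with the lowest p in every other list, Lamp1, Cd68, Cd74, Adgre1 and the 5 nearest profiles. The members and lists were chosen with earlier results of these data known.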

Additional observations from a re-analysis of the deposited data

How the results depend on the processing

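The 10 cathepsin fold changes were recomputed under 18 alternatives each. In 158 of these 180 comparisons the direction and the side of the threshold were kept, in 14 the direction was kept but the threshold was missed, and in 8 the direction turned, all 8 when the mature fibre score was a covariate (Ctsa -0.014, Ctsb -0.23, Ctsc -0.51, Ctsh -0.45, Ctsk -0.42, Ctsl -0.29, Ctss -1.79 and Ctsz -0.88). Of the 10 members 1 passed the adjusted p with that covariate and 0 with replicates 1 and 3 only, where 9 had an unadjusted p below 0.05. Over all genes the count of 7863 became 372 and 0. Leaving out 1 library gave 9 to 10 members and 5457 to 9165 genes. Members past both thresholds numbered 7 with total counts and with limma on either FPKM scale, 0 with replicates 1 and 3 only, and 0 to 4 when 1 library was left out (0 without Gpr174-/Y replicate 3, WT replicate 1 or WT replicate 2, and 4 without WT replicate 3). The replicate block called all 10 members and 6812 genes. The log2 ratio of cysteine cathepsins to Cst3, 1.05, was 0.87 to 1.25 when 1 library was left out. Among the other named genes, Cst3 turned to 0.13, 0.12 and 0.13 and Cd74 to 0.15, 0.15 and 0.15 with total counts, log2(FPKM + 1) and log2(FPKM + 0.1). With the fibre score the following turned: Adgre1 -0.89, Cd68 -0.91, Col1a2 -0.45, Col4a1 0.37, Cst3 0.27, Cstb -0.80, Ctse -2.57, Ctso -0.11, Gaa 0.23, Gusb -0.010, Igf2r -0.089, Lamp1 -0.046, Lgmn -0.81, Mcpt4 1.09, Cma1 1.51, M6pr -0.41, Smpd1 0.54, Spi1 -0.997, Tfe3 -0.080, Tfeb 0.15 and Tfec -1.01. By construction, the alternatives differ in scaling (total counts, FPKM), in the number of libraries or in a covariate that separates the genotypes, and the cause was not tested further. With total counts the falls of Cpq, Gaa, Atp6v1d, H2-Eb1 and Cma1 no longer passed and the rises of Lamp1 and Ctse did. Depth did not limit the members, which had at least 503 counts in every library, but it did limit Gpr174, Ctse and Ctsg.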
